A study of Physcomitrium patens with 21 samples.

Results

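The genes described here are 52 gene models of the moss Physcomitrium patens whose mean level in stems was lower at 2, 6, 12 and 24 h after decapitation than at 0 h, and whose mean level differed little between auxin-treated and mock-treated gametophores. They were chosen by their measured values. Levels were counted read pairs per 1000000 pairs of the library (CPM), averaged over the 3 libraries of a group and put on the log2(CPM + 1) scale. A gene entered when its 0 h mean was at least 5 CPM, its difference from 0 h was -0.5 or lower at all 4 times, and its difference between auxin and mock was smaller than 0.5 in either direction. Of 32926 gene models, 15908 reached 5 CPM at 0 h, and 194 of these were lower at all 4 times. Among the 194, auxin differed from mock by 0.5 or more upward in 137 and downward in 5, which left the 52.

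Gametophores are the leafy shoots of mosses. They grow from an apical cell at the tip, and new branches arise from cells of the stem below it. Auxin, a plant hormone made in the shoot tip and moved through the shoot, is known to hold back branching in this moss, and taking the tip off lets branches form. The rule set aside the genes with the larger auxin differences.

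All plants were wild type of the Gransden strain, kept at 23 °C with 16 h of light a day and 8 h of dark, and all libraries are labelled as stem. In the decapitation series, stems were taken at 0, 2, 6, 12 or 24 h, from colonies that were 4 weeks old, and RNA of 5 to 10 gametophores was pooled per library. The labels call the 0 h group decapitated as well, and name it as the control of the later times. In the auxin experiment, gametophores received 10 µM of the auxin IAA (indole-3-acetic acid) or the solvent for 30 min, and their labels give no colony age. Each of the 7 groups had 3 libraries, described as biological replicates, with 18995348 to 32039288 counted pairs each. In most of the 17 genes with a 12 h difference of -2 or lower, 3 libraries stood apart from their groups. They were replicate 1 at 0 h, replicate 1 at 6 h and replicate 3 at 24 h. Among all 52 genes, as many were highest in replicate 2 at 0 h as in replicate 1, 24 each. Results without these 3 libraries are given after the main ones. No intact stems at the later hours were analysed here, so hours since decapitation and hour of the day cannot be told apart at 2, 6 and 12 h. Stems taken at 24 h were back at the hour of day of their cutting, but there too no intact stems were compared. In these bulk samples, fewer cells of a type and less RNA per cell cannot be told apart either. The tables do not pair identifiers with gene names, and 0 of the 32926 identifiers matched the 27567 genes of the RefSeq table. The 52 genes are therefore given by identifier only, no function is attached to them, and the stem label could not be checked against marker genes.

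The values that chose the genes had a common course. The median difference from 0 h went from -0.66 (2 h) and -0.91 (6 h) to -1.52 (12 h), and was -0.96 after 24 h, while over the 15908 genes at 5 CPM or more the medians were 0.05, 0.09, 0.10 and -0.06. The lowest of the 4 later means fell on 12 h for 42 of the 52 genes, on 6 h for 6 and on 24 h for 4, and for none of them on 2 h. At 12 h the median gene stood at 27.3% of its 0 h mean, with a range from 1.21% to 59.6%. At 24 h the median gene stood at 47.0%, with a range from 9.92% to 69.2%. In 32 genes the mean was lower at each successive time up to 12 h, and 31 of those 32 were higher at 24 h than at 12 h. Only 3 genes were lower by 1 or more at all 4 times. These values describe the choice and carry no test.

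**Figure D1:**
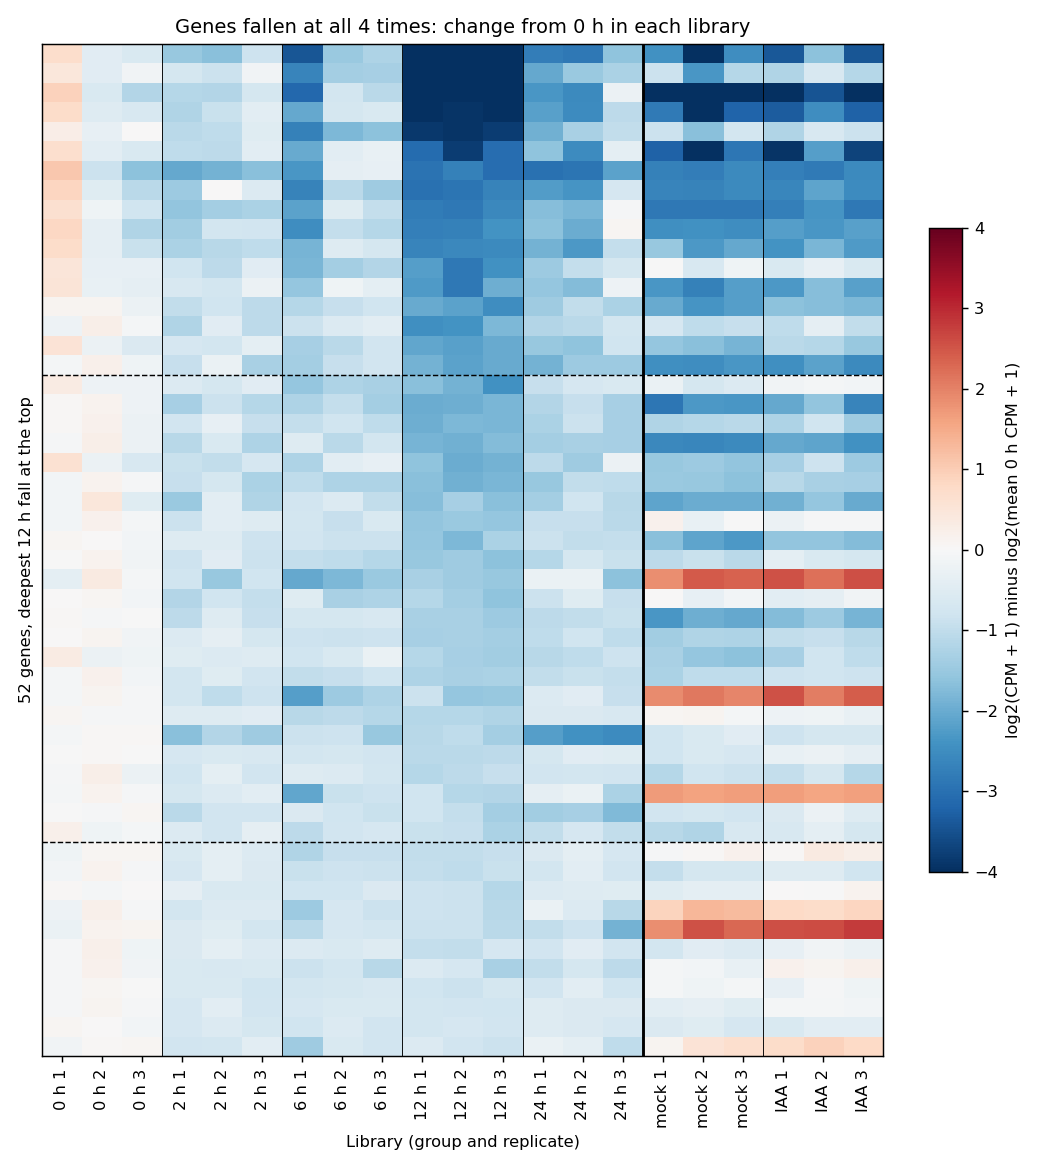
Change of each of the 52 genes (rows, deepest 12 h difference at the top) in each of the 21 libraries (columns), as log2(CPM + 1) minus log2 of the mean 0 h CPM + 1. Colour shows the difference, values beyond 4 in either direction are drawn at 4, dashed lines mark 12 h differences of -2 and -1, and the thick line separates the decapitation series from the auxin experiment. The 12 h columns are the darkest. In 6 rows all mock and IAA libraries were above all 0 h libraries.

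The spread between libraries was not the same for all of them. In 38 of the 52 genes, the 3 libraries at 0 h were above all 12 later libraries, against 4.31% of the genes at 5 CPM or more. Taken time by time, the 0 h libraries were above all libraries of the later group in 43 genes at 2 h (18.3% of the genes at 5 CPM or more), 43 at 6 h (23.3%), 52 at 12 h (22.8%) and 44 at 24 h (32.9%). In edgeR's quasi-likelihood test with Benjamini-Hochberg adjustment over 20269 genes, 41 of the 52 were called lower at 2 h (13.8% of all genes tested were), 45 at 6 h (23.6%), 52 at 12 h (25%) and 41 at 24 h (16.5%). A call means an adjusted p below 0.05. All 4 times were called in 36 of the 52 genes, against 2.82% of all genes tested. The rule used these same contrasts, so nothing is read from these counts beyond which genes had replicates far apart.

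By the size of the 12 h difference the genes spanned a wide range, and 3 classes cut after the values were seen describe it. In 17 genes the 12 h difference was -2 or lower, in 24 it lay between -2 and -1, and in 11 it was smaller than 1 in size. In time order, the medians of the 17 were -0.84, -1.03, -2.74 and -1.29, and those of the 11 were -0.61, -0.81, -0.86 and -0.60. The classes were cut on the 12 h value, so the 12 h medians follow from the cut. The 0 h libraries lay above all later libraries in 11 of the 11 genes of the second kind and in 6 of the 17 of the first.

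Gene Pp3c11_4920V3.1 had the deepest 12 h difference of the 52. At 0 h its 3 libraries held 395, 180 and 158 CPM, at 2 h 84.5, 76.3 and 138 CPM, and at 6 h 21.9, 85.9 and 103 CPM. At 12 h they held 4.11, 2.54 and 2.21 CPM, and at 24 h 35.3, 32.8 and 80.2 CPM. The 12 h libraries lay far below all others, at 1.21% of the 0 h mean, and the 24 h libraries stood at 20.2% of it. Replicate 1 was the highest at 0 h and the lowest at 6 h, and replicate 3 was the highest at 24 h.

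Gene Pp3c19_2760V3.1 had the highest level per length at 0 h, 525 CPM per kb of its 907-base model. Its libraries held 652, 346 and 430 CPM at 0 h, 291, 262 and 430 CPM at 2 h, and 75.6, 183 and 188 CPM at 6 h. They held 17.6, 12.5 and 8.74 CPM at 12 h and 115, 169 and 199 CPM at 24 h. The 0 h and 2 h libraries overlapped, the 6 h libraries lay below both, and the 12 h libraries lay below all others. Gene Pp3c22_12360V3.1 went the same way with less spread at 0 h. It held 113, 75.2 and 94.6 CPM at 0 h, 43.7, 46.0 and 67.1 CPM at 2 h, and 13.7, 26.6 and 29.8 CPM at 6 h. The 12 h libraries held 5.53, 5.33 and 5.81 CPM, and the 24 h libraries 24.1, 38.0 and 47.2 CPM. Its 12 h libraries agreed closely, at 5.90% of the 0 h mean, and no later library reached the 0 h range.

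Gene Pp3c17_20120V3.1 was near 0 at 12 h. Its libraries held 56.7, 19.2 and 12.6 CPM at 0 h, 12.9, 12.5 and 17.8 CPM at 2 h, and 2.45, 17.5 and 13.3 CPM at 6 h. The 12 h libraries held 0.0432, 0.254 and 0.913 CPM, which is 1, 5 and 19 pairs. At 24 h they held 5.11, 4.25 and 24.97 CPM. Replicate 3 at 24 h exceeded replicates 2 and 3 at 0 h, so the libraries overlapped at a 24 h difference of -1.29. Gene Pp3c26_470V3.1 was also near 0 at 12 h, at a lower level throughout. It held 10.3, 5.46 and 3.19 CPM at 0 h, 1.45, 1.87 and 2.06 CPM at 2 h, and 0.665, 4.26 and 2.82 CPM at 6 h. There were 1, 0 and 5 pairs in the 12 h libraries, and the 24 h libraries held 1.26, 1.05 and 6.06 CPM. Its 2 h mean lay below its 6 h and 24 h means, unlike that of Pp3c17_20120V3.1.

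Gene Pp3c10_17490V3.1 had the lowest differences from 0 h of the 52 at 2 h and at 24 h, -1.87 and -2.63, and it also showed the widest spread at 0 h. Its libraries held 29.9, 6.94 and 3.62 CPM at 0 h, 2.47, 2.88 and 3.55 CPM at 2 h, 1.91, 10.4 and 10.6 CPM at 6 h, 0.865, 1.22 and 0.769 CPM at 12 h, and 0.842, 0.892 and 2.28 CPM at 24 h. Replicate 1 at 0 h was 8.27 times replicate 3, and the 2 h libraries reached nearly to replicate 3 at 0 h. Without replicate 1 at 0 h the gene no longer met the rule.

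Gene Pp3c19_9000V3.1 followed another course, with close replicates at 0 h and a wider spread at 2 h and 6 h. Its libraries held 346, 377 and 381 CPM at 0 h, 115, 164 and 135 CPM at 2 h, and 201, 205 and 128 CPM at 6 h. The 12 h libraries held 170, 183 and 144 CPM, and the 24 h libraries 79.8, 68.1 and 63.5 CPM. The 0 h libraries were above all others, the 2, 6 and 12 h libraries overlapped, and the 24 h libraries were below all of them. It was 1 of the 4 genes with the minimum at 24 h.

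Gene Pp3c3_28050V3.1, second in level per length with 485 CPM per kb, held 758, 518 and 521 CPM at 0 h, 414, 368 and 434 CPM at 2 h, and 206, 254 and 245 CPM at 6 h. The 12 h libraries held 186, 162 and 111 CPM, and the 24 h libraries 314, 373 and 389 CPM. The groups at 0, 2, 6 and 12 h did not overlap, and the 24 h libraries lay above all those at 6 h. Gene Pp3c16_12030V3.1 had close replicates at every time. It held 100, 107 and 100 CPM at 0 h, 63.7, 66.9 and 65.0 CPM at 2 h, and 61.1, 62.1 and 60.4 CPM at 6 h. The 12 h libraries held 47.9, 48.5 and 48.8 CPM, and the 24 h libraries 62.0, 74.1 and 73.0 CPM. Its lowest difference from 0 h was -1.07, and the 0 h libraries were above all 12 later ones.

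**Figure D2:**
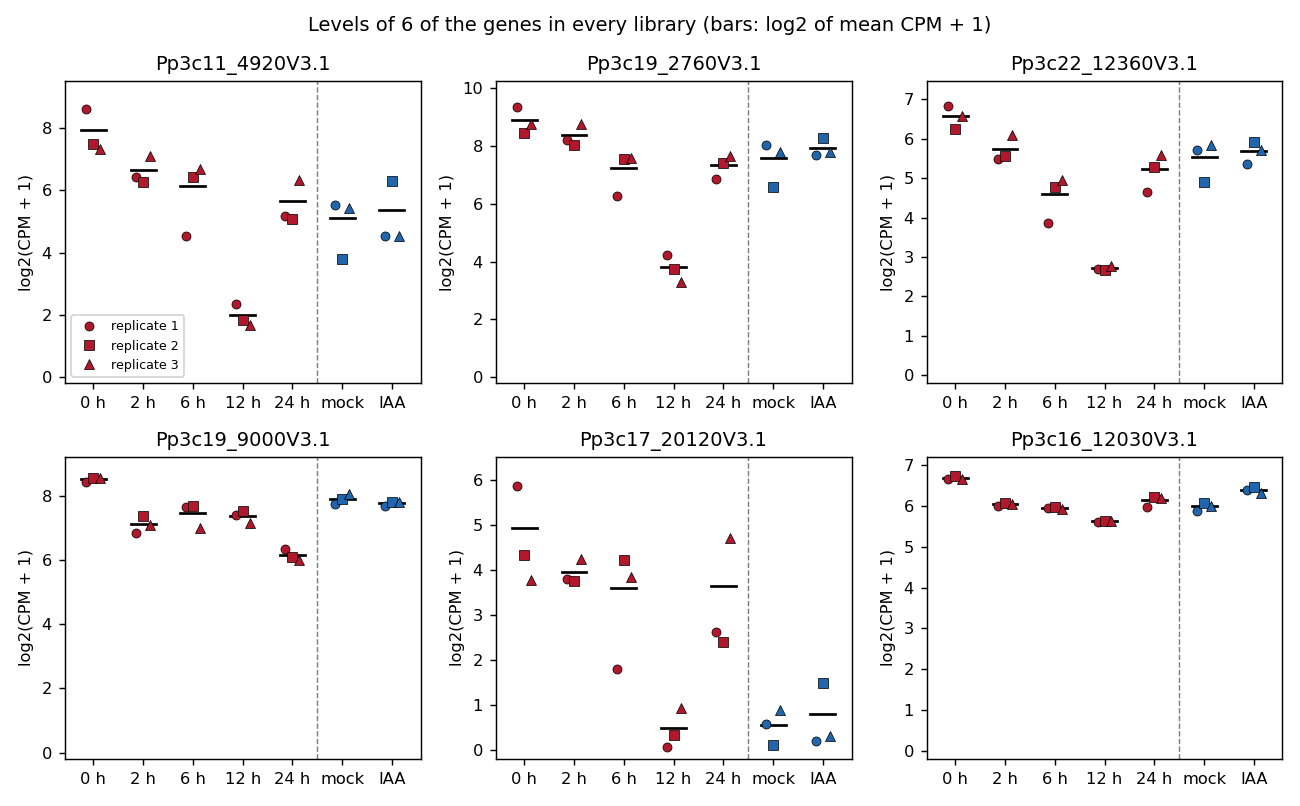
Levels of 6 of the genes in every library as log2(CPM + 1) on the vertical axis, by group on the horizontal axis. Points are libraries, with the replicate number as the symbol, red for the decapitation series and blue for the auxin experiment, and bars are the log2 of the group's mean CPM + 1. The first 3 genes drop sharply at 12 h, and Pp3c19_9000V3.1 is lowest at 24 h. Pp3c17_20120V3.1 is low in mock and IAA, with IAA replicate 2 the highest of these libraries. Pp3c16_12030V3.1 has tight replicates up to 12 h.

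The rule did not use the steps between the later times, although it fixed each of those times to lie below 0 h. From 2 h to 6 h, 10 of the 52 genes fell further (13.2% of all genes tested were called lower) and none was called higher (12.8%), with 1 higher at an unadjusted p below 0.05 and none in DESeq2. The median step was -0.26 on edgeR's log2 scale. From 6 h to 12 h, 33 of the 52 fell (21.2%) with a median step of -0.79, and none was called higher (16.8%), in either tool or at an unadjusted p below 0.05. From 12 h to 24 h, 41 rose (24%) and 1 fell (21.6%), with a median step of 0.87. From 2 h to 24 h, 6 were lower (21.7%) and 1 was higher (22.4%), with a median of -0.11. Over all genes tested, the medians of these 4 steps were 0.01, -0.03, -0.01 and -0.02. The share of the genes called lower from 6 h to 12 h and called higher from 12 h to 24 h was above the share of all genes. Both steps share the 12 h libraries, which the rule bounded. The low at 12 h was not particular to the 52. Of the 137 fallen genes with a larger auxin rise, 128 were lowest at 12 h (93.4%, against 80.8% of the 52). Their median difference from 0 h was -2.42 at 12 h and -0.98 at 24 h. The calls between 2 h and 24 h were fewer than the background, but the rule held both times below 0 h. Without the 3 libraries that stood apart in the genes with the deepest 12 h differences, the lower calls numbered 16 of 52 (30.8%, against 19.9% of all genes in that fit).

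**Figure D3:**
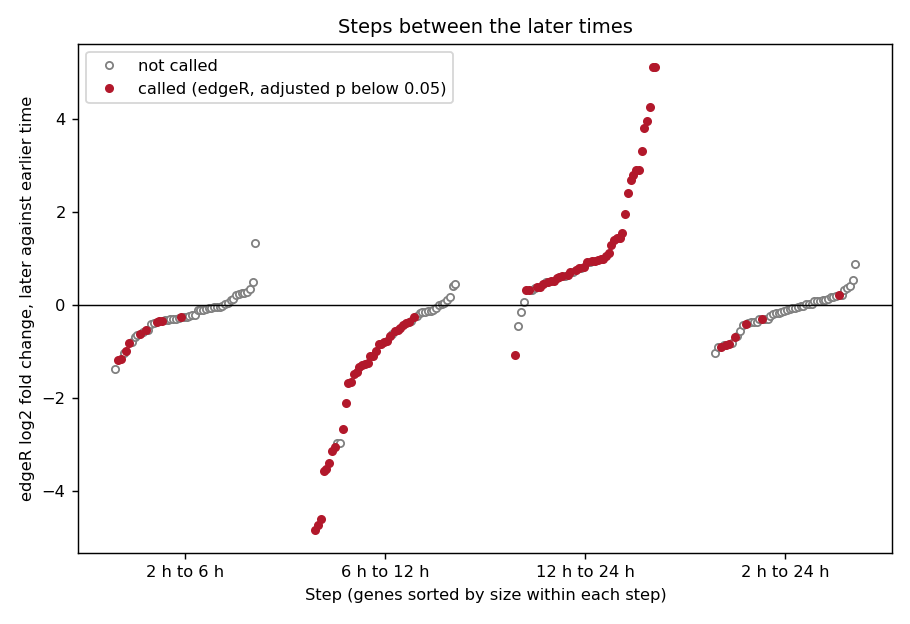
The edgeR log2 fold change of each of the 52 genes (points) for 4 steps between later times, sorted by size within each step, with called genes filled. Most genes lie below 0 from 6 h to 12 h and above 0 from 12 h to 24 h, and the points from 2 h to 24 h lie on both sides of 0.

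The sharpest fall from 2 h to 6 h among the called genes was that of Pp3c22_12360V3.1, with a log2 fold change of -1.18 ± 0.27 (SE) and an edgeR adjusted p of 0.00455. Pp3c19_2760V3.1 followed with -1.16 ± 0.33 and an edgeR adjusted p of 0.0176. The call of Pp3c19_2760V3.1 was lost without replicate 3 at 2 h (edgeR adjusted p = 0.0855) and without replicate 1 at 6 h (edgeR adjusted p = 0.0586). From 6 h to 12 h, Pp3c17_20120V3.1 fell by 4.82 ± 1.20 (edgeR adjusted p = 0.00526) and Pp3c26_470V3.1 fell by 4.71 ± 1.19 (edgeR adjusted p = 0.00571). From 12 h to 24 h the same genes rose by 5.11 ± 1.17 (edgeR adjusted p = 0.00227) and 5.10 ± 1.14 (edgeR adjusted p = 0.00186). Their 12 h groups hold 25 and 6 pairs in all, so these steps carry wide errors. Without replicate 3 at 24 h the rises were 3.71 and 3.69, and without replicate 3 at 12 h they were 6.56 and 6.88. With each library left out in turn, the falls ran from -6.27 to -4.24 and from -6.49 to -4.17, and all of them stayed called.

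Pp3c19_9000V3.1 was the only gene called lower at 24 h than at 12 h, with -1.06 ± 0.16 (edgeR adjusted p = 5.99e-05), and it was also lower at 24 h than at 2 h, with -0.86 ± 0.16 (edgeR adjusted p = 0.000456). The second gene named for the step from 2 h to 24 h, Pp3c19_2760V3.1, had -0.90 ± 0.33 (edgeR adjusted p = 0.0366). That call was lost when any of 4 libraries was left out, with edgeR adjusted p from 0.0514 to 0.159, in DESeq2 (adjusted p = 0.0569) and in 1 edgeR fit of all 21 libraries (adjusted p = 0.0530). The gene called higher at 24 h than at 2 h, Pp3c16_12030V3.1, differed by 0.22 ± 0.06 (edgeR adjusted p = 0.0083). This was a small step on TMM-scaled counts. In CPM the groups overlapped, with replicate 1 at 24 h below all 2 h libraries. TMM scaling moved the median of all genes at 5 CPM or more by -0.07 at 2 h and by 0.05 at 24 h, each against 0 h.

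Auxin against mock was bounded by the rule, so these values show what passed it. The differences on the log2(CPM + 1) scale ran from -0.36 to 0.47 with a median of 0.27, and 41 of the 52 were above 0. Of all 15908 genes at 5 CPM or more, 36.1% were above 0, and of those within 0.5 of 0, 32.4% were. In edgeR, which tested 51 of the 52 genes (Pp3c26_470V3.1 had too few counts), 22 were called higher in IAA than in mock (21.3% of 19989 genes tested) and none was called lower (18.4%). The higher calls numbered 13 of 51 without mock replicate 3 (25.5%, against 18.4% of all genes in that fit) and 14 without IAA replicate 2 (27.5%, against 18.4%). At an unadjusted p below 0.05, 1 gene was lower, and DESeq2 called none lower. The median edgeR log2 fold change was 0.44, computed with TMM scaling and without the added 1 CPM, and 19 genes had an estimate of 0.5 or more. The edgeR median was 0.27 without IAA replicate 2, and 0.41 to 0.46 when any other library of this experiment was left out. On the log2(CPM + 1) scale, the median was 0.14 without IAA replicate 2. In 11 of the 51 genes the 95% interval lay within 0.5 on both sides of 0, and in the other 40 it reached 0.5. For those 40 an auxin difference of 0.5 was not excluded, so the genes are called here by the rule that chose them and not as genes without an auxin response.

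**Figure D4:**
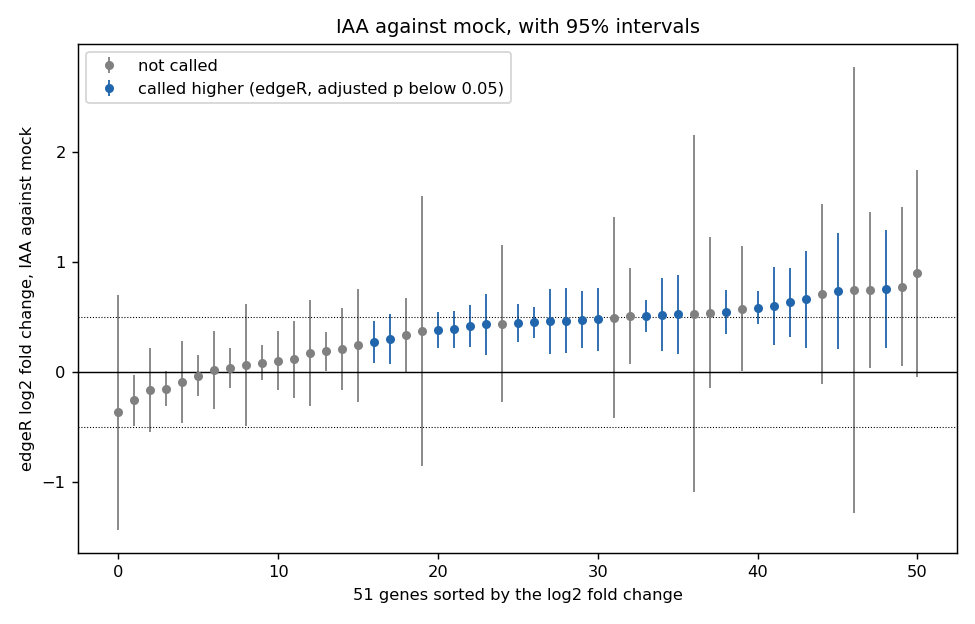
The edgeR log2 fold change of IAA against mock for 51 of the genes, sorted by size, with bars for the 95% interval and dotted lines at 0.5 above and below 0. The 22 genes called higher (blue) lie between 0.27 and 0.76, and most bars cross the upper dotted line.

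The largest called auxin differences were those of Pp3c5_20390V3.1 and Pp3c1_2740V3.1. Pp3c5_20390V3.1 held 2.07, 1.83 and 1.45 CPM in mock and 3.28, 3.02 and 2.11 CPM in IAA. The IAA libraries were above the mock libraries, and the log2 fold change was 0.76 ± 0.24 (edgeR adjusted p = 0.0314). Pp3c1_2740V3.1 held 1.26, 1.96 and 1.77 CPM in mock and 2.42, 3.16 and 2.16 CPM in IAA, with 0.74 ± 0.23 (edgeR adjusted p = 0.0319) and no overlap. Each of these calls was lost without 4 of the 6 libraries in turn, with edgeR adjusted p up to 0.118 and 0.122, and that of Pp3c5_20390V3.1 also in 1 edgeR fit of all 21 libraries (adjusted p = 0.0759). Pp3c16_12030V3.1 held 58.1, 66.5 and 63.6 CPM in mock and 82.7, 87.1 and 79.7 CPM in IAA, a log2 fold change of 0.51 ± 0.06 (edgeR adjusted p = 0.000278). Pp3c3_28050V3.1 held 502, 367 and 411 CPM in mock and 541, 565 and 552 CPM in IAA, with 0.48 ± 0.11 (edgeR adjusted p = 0.00993). In both genes the IAA libraries were above all mock libraries. These 2 were named for other comparisons.

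Other genes gave no such separation. Pp3c19_9000V3.1 held 213, 239 and 266 CPM in mock and 205, 223 and 225 CPM in IAA, and its 95% interval ran from -0.22 to 0.15. Pp3c11_4920V3.1 held 44.9, 12.8 and 42.5 CPM in mock and 22.4, 77.2 and 21.9 CPM in IAA, so its interval ran from -0.85 to 1.602 and spans both a fall and a rise. Pp3c10_17490V3.1 held 1.22, 1.14 and 1.49 CPM in mock and 1.19, 1.05 and 1.502 CPM in IAA, with an interval from -0.49 to 0.62.

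Mock levels were set beside the 0 h levels as a description. The rule chose genes that were high at 0 h against 4 other groups, and these differences share those 0 h values, so nothing is read from their distance to all genes. The median of mock minus 0 h was -1.01 on the log2(CPM + 1) scale for the 52 genes and 0.00 for the 15908 genes at 5 CPM or more. The mock mean was under 5 CPM in 16 of the 52 genes, against 3.46% of the 15908, and at or below 50% of the 0 h mean in 28, against 5.90%. In 37 of the 52 genes all 6 libraries of the auxin experiment were below all 0 h libraries (25.5% of the 15908), and in 6 they were all above (16.7%). In 10 genes the mock mean was below the 12 h mean.

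The median of mock minus 0 h was -2.42 in the 17 deep genes, -0.98 in the 24 of the middle and -0.16 in the 11 shallow ones, and the classes too were cut on a difference from 0 h. Mock means within the deep class ran from 0 CPM in Pp3c26_470V3.1 to 191 CPM in Pp3c19_2760V3.1. Pp3c17_20120V3.1 held 12, 2 and 21 pairs in the mock libraries and 3, 41 and 5 pairs in the IAA libraries, against 1196, 401 and 268 at 0 h. Pp3c26_470V3.1 had 0 pairs in all 3 mock libraries, which allows a level of up to 0.0405 CPM (3 pairs over the group's total, counting error only), and 2, 10 and 0 pairs in IAA. For such genes a small difference between auxin and mock on the log2(CPM + 1) scale says little, since 1 CPM is added to values near 0. The experiments differ in treatment, handling and possibly colony age, which cannot be told apart here.

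**Figure D5:**
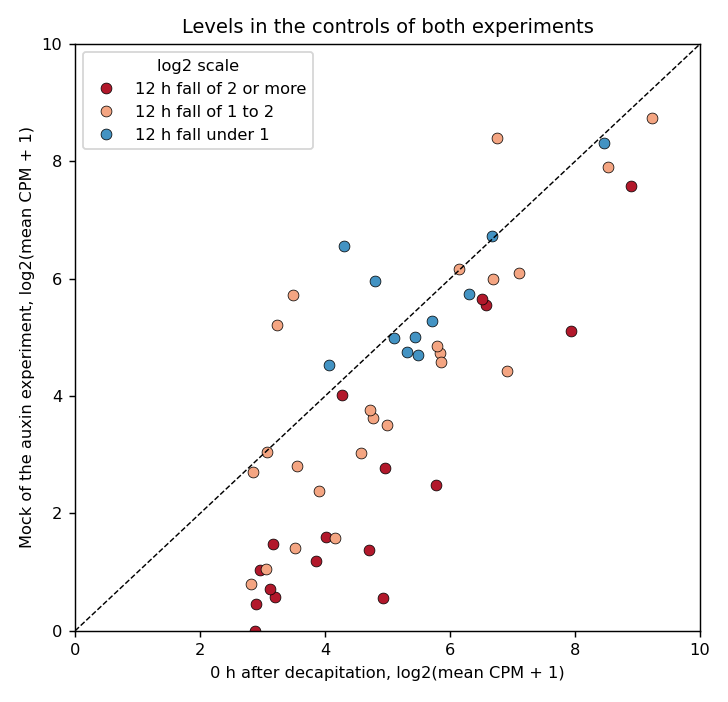
Mean level in mock (vertical axis) against mean level at 0 h (horizontal axis) for the 52 genes, both as log2(mean CPM + 1), coloured by the size of the 12 h difference, with the dashed line at equal levels. Genes with a 12 h fall of 2 or more (dark red) lie below the line, most of them by more than 1 unit, and 5 genes lie above it by 1 unit or more.

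The deep genes varied among the libraries of a group in a shared way. Of the 17, 15 were highest in replicate 1 at 0 h (32.3% of the 15908 genes were), 17 were lowest in replicate 1 at 6 h (31.0%) and 15 were highest in replicate 3 at 24 h (28.2%). The 6 h feature was not particular to the deep genes. It held for 9 of the 11 shallow genes, 35 of the 52, and 102 of the 137 fallen genes with a larger auxin rise. All 3 features held for 14 of the 17, for 19 of the 52, for 1 of the 11 shallow genes, and for 4.1% of the 15908. The median of the deep genes in the 0 h libraries was 0.63 above the log2 group mean in replicate 1 and at -0.36 and -0.62 from it in replicates 2 and 3. At 6 h it was -2.05 in replicate 1 against -0.92 and -0.80, and at 24 h it was -0.80 in replicate 3 against -1.89 and -1.84. The shallow genes went the other way at 24 h, where replicate 3 was the lowest library in 10 of 11 (40.0% of the 15908). Of the 137 genes set aside for a larger auxin rise, 72 also showed all 3 features. The rule used the group means, so a high library at 0 h or a low library at 6 h helped a gene to enter. A high library at 0 h also helped it to be classed as deep. Nothing is therefore read from the distance of these counts to all genes. Replicate 3 at 24 h was the deepest library of the series, and the part of depth or of these libraries in the result was not tested.

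Which genes met the rule depended on single libraries. Without replicate 1 at 0 h, the rule gave 46 genes, of which 34 were among the 52, and without replicate 2 at 0 h it gave 47 with 40 shared. Over all 21 libraries left out in turn it gave 46 to 70 genes, and 12 of the 52 stayed whichever library was left out. With the group median in place of the mean it gave 44 genes, 27 of them shared. With those 3 libraries left out together, an alternative added after the values were seen, it gave 37 genes, 30 of them shared. In an edgeR fit of 20365 genes without them, 36 of the 52 fell from 6 h to 12 h (18.9% of all genes were called lower) and 43 rose from 12 h to 24 h (22.9% higher). The genes lower at 24 h than at 2 h went from 6 to 16 (19.9%) and those higher from 1 to 4 (21.3%). Those higher at 6 h than at 2 h went from 0 to 4 (9.89%). Pp3c16_12030V3.1 was then not called between 2 h and 24 h (edgeR adjusted p = 0.0604). The libraries were picked for their distance from the others in the deep genes, which makes the remaining spread smaller.

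The edges of the rule lay close to many other genes. The nearest gene inside at 2 h had a difference of -0.5045, and the nearest outside -0.4983. There were 75 genes that missed the rule at 2 h alone, 33 at 24 h alone, 11 at 6 h alone and 3 at 12 h alone. The 12 h edge had a gap, from -0.72 inside to -0.31 outside. On the auxin side the nearest values were 0.47 inside and 0.52 outside upward, and -0.36 and -0.63 downward. On the level at 0 h the nearest were 6.07 CPM inside and 4.35 CPM outside, with 18 genes kept out by level alone.

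Length and position, which the rule did not use, were described without a test. The gene models had a median length of 1948.5 bases (quartiles 1468.75 and 2608), against 2360 bases (1688.75 and 3260) for the 15908. The 17 deep genes had a median of 1569 bases, the 24 of the middle 2008, and the 11 shallow ones 3413. Level per length at 0 h had a median of 14.8 CPM per kb, against 12.7 for the 15908. By the prefixes of their identifiers the 52 fell under 24 prefixes, with at most 6 under any of them, and 51 of the 52 prefixes began with Pp3c. None of the 52 had another of them as the next identifier, and 3 of the 28 successive pairs on a shared prefix lay within 10 serial steps.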

How the data were processed

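Per the labels' protocols, libraries were made with a stranded TruSeq kit after polyA selection, starting with 4 µg of RNA, and read from both ends. The deposited values are whole-number counts of read pairs per gene model, with no normalization. The submitters' processing notes name Bowtie2. The genome build, the annotation and the use of strand in counting are not given in the sources used here. Per the file headers, single mates were treated like unmapped reads and reads with several equal hits were removed, so genes with near-identical copies are undercounted. Since the use of strand in counting is not given, reads of a gene and an overlapping antisense gene may be mixed.

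From the deposited counts, CPM was computed as pairs per 1000000 counted pairs of the library. The members and lists were chosen with earlier results of these data known. Group differences used edgeR 4.0.16 in R 4.3.3 (filterByExpr, TMM, glmQLFit and glmQLFTest), in separate fits on the 15 decapitation libraries (20269 genes) and the 6 auxin libraries (19989 genes). Adjusted p-values are Benjamini-Hochberg over all genes of a fit, with a threshold of 0.05, and n = 3 libraries per group. SE is the size of the log2 fold change over the root of its F value. edgeR's common BCV (biological coefficient of variation) came to 0.0796 and 0.0927. Depth ran from 18995348 to 32039288 pairs, and within groups, none of the 21 pairs of replicates was as close as sampling alone would make them (chi-square per degree of freedom 3.36 to 16.2).

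Named genes, 11 in all, are at most 2 per comparison and direction: the lowest differences from 0 h, the largest called steps, the largest called auxin differences, and the highest levels per length. The planned gene lists could not be filled without gene names and were not run. Alternatives were RLE factors, no filter, DESeq2 1.42.0, a replicate block, a fit of all 21 libraries, other pseudocounts (0.5 and 2), TMM-scaled CPM, single reads, no level minimum, group medians, and leaving out each library.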

Additional observations from a re-analysis of the deposited data

How the results depend on the processing

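Of 656 recomputed values, 613 kept their call or stayed within 1.5 times of the count or within the spread between libraries. The 613 include values that could not move. The median difference at a time uses only the libraries of that time and of 0 h, so leaving out any other library repeats it. Counts have no direction that could reverse, and the medians are of genes chosen to be low at all times. A reversal could show only in the 232 values of named genes, picked mostly for the largest called steps. None of these reversed, and 18 lost their call. The rule gave 57 genes with TMM-scaled CPM (42 of the 52 among them), 56 with RLE (41), 56 and 49 with pseudocounts of 0.5 and 2, 62 on single reads and 70 with no level minimum. The median difference at 12 h was -1.60 with TMM-scaled CPM, -1.63 with a pseudocount of 0.5 and -1.26 with 2. TMM moved the median of all genes by 0.09 in the auxin difference and by -0.10 at 12 h (RLE 0.11 and -0.11), and 46 of the 52 were then above mock, with 45 and 43 still within 0.5.

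With each library left out in turn, the members numbered 46 to 70. The medians ran from -0.78 to -0.64 at 2 h, from -0.98 to -0.82 at 6 h, from -1.57 to -1.41 at 12 h and from -1.03 to -0.78 at 24 h. Called lower were 31 to 45 at 2 h, 42 to 49 at 6 h, 52 at 12 h, 38 to 46 at 24 h and 29 to 39 at all times. From 2 h to 6 h, 7 to 13 were lower and 0 to 1 higher. From 6 h to 12 h, 31 to 35 were lower and 0 higher. From 12 h to 24 h, 37 to 44 were higher and 1 to 2 lower. From 2 h to 24 h, 4 to 10 were lower (10 without replicate 3 at 24 h) and 1 to 2 higher (2 without replicate 2 at 2 h, replicate 2 at 6 h or replicate 3 at 24 h). From mock to IAA, 13 to 20 were higher (13 without mock replicate 3, 14 without IAA replicate 2) and 0 to 1 lower.

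In 1 fit of all 21 libraries, 2 genes were lower from 12 h to 24 h, 2 higher from 2 h to 24 h, and 1 lower in IAA. Deviations from the group mean of each gene, on the log2 CPM scale, were correlated between same-numbered libraries of different groups. The correlations ran from -0.23 to 0.25 in the decapitation series, with 11 of 30 pairs over 0.1, and 1 of 3 pairs was over 0.1 in the auxin experiment. These were not set beside differently numbered libraries, so they cannot tell whether the replicate numbers pair the libraries. With the replicate block, 2 genes were higher from 2 h to 24 h, 40, 45, 52 and 41 were lower than at 0 h, and 24 were higher in IAA. Without the 3 libraries left out together, 4 genes were higher and 16 lower from 2 h to 24 h, and 4 were higher from 2 h to 6 h. The cause of these moves was not tested. Counts of 6 and 25 pairs in the 12 h groups limit what can be said of the lowest genes.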
